A study of Homo sapiens with 6 samples.

Results

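The alpha, beta and gamma tubulin genes TUBA1A, TUBA1B, TUBA1C, TUBA4A, TUBB, TUBB2A, TUBB3, TUBB4B, TUBB6 and TUBG1 were taken by gene symbol, and 9 of these 10 genes had rows among the 11593 gene symbols measured. They comprised 3 alpha, 5 beta and 1 gamma tubulin gene, with 32 of the 28768 transcript rows. TUBA4A matched no row and was not analysed here. The libraries came from SK-Hep1, a human cell line labelled as hepatocellular carcinoma, and all were labelled as ChIRP, a method that retrieves an RNA with biotinylated antisense DNA probes and sequences what comes with it. In 3 libraries the complete probe set targeted SNHG10, a long noncoding RNA. In the 3 control libraries the probes targeted LacZ, a bacterial gene absent from the human genome. The labels' protocol describes Trizol RNA and total RNA libraries without a pull-down step, so which RNA fraction was sequenced was not settled by the sources used here. The series asked which messenger RNAs come with SNHG10.

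Alpha and beta tubulin pair into the dimers from which microtubules, the hollow filaments of the cytoskeleton and the mitotic spindle, are built. Gamma tubulin sits in ring complexes that start new microtubules. The genes of each family encode nearly identical proteins, and cells destroy alpha and beta tubulin mRNA during translation when free dimers accumulate, with the protein TTC5 reading the start of the new chain. The coding parts of these mRNAs are so alike that short reads can match several of them. The assignment of such reads is not given in the sources used here, so every paralog level below carries that uncertainty.

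FPKM, fragments scaled by transcript length and by the mapped fragments of the library, totalled 268794 to 272909 per library in SNHG10 libraries and 271354 to 277118 in LacZ libraries, and 30.5% to 33.8% of the transcript rows were at 0 in a library. Read depth is unknown, so no interval or detection limit could be set for a single library. The cell label was set against marker genes: of 12 hepatocyte markers 2 were listed, SERPINA1 and CPS1, with a summed level of 1.04 to 1.72 FPKM in SNHG10 libraries, against 1.25 to 2.12 FPKM in LacZ libraries. The defining hepatocyte genes ALB, APOA1, TTR and HNF4A had no row used here. Of 11 neuronal markers, the cell type in which TUBB3 is best known, 2 were listed (SYP and SNAP25), with sums of 0 to 3.07 FPKM in SNHG10 libraries, against 2.09 to 3.91 FPKM in LacZ libraries. Of the other marker lists, 3 of 10 endothelial, 2 of 7 leukocyte and 5 of 9 fibroblast genes were listed, with PECAM1, VWF, CDH5 and PTPRC among those without a row used here. The endothelial sum was 42.4 to 51.2 FPKM in SNHG10 libraries, against 46.4 to 61.8 FPKM in LacZ libraries, and most of it was ENG. Within it EGFL7 was 7.45 to 8.30 FPKM in SNHG10 libraries, against 14.03 to 26.0 FPKM in LacZ libraries, which did not overlap (log2 difference -1.16, unadjusted p 0.00264, adjusted p 0.778 by limma). CPS1 did not overlap either, at 0.505 to 0.796 FPKM in SNHG10 libraries, against 0.883 to 1.53 FPKM in LacZ libraries. It did not reach 1 FPKM in 3 libraries and was not tested. Of all 10304 genes tested, 11.4% did not overlap. The leukocyte sum was 36.8 to 56.1 FPKM in SNHG10 libraries, against 43.1 to 56.5 FPKM in LacZ libraries, nearly all of it CD68, while CD14 stayed between 0.763 and 2.69 FPKM. The fibroblast sum was 882 to 1253 FPKM in SNHG10 libraries, against 1004 to 1570 FPKM in LacZ libraries, nearly all of it VIM, a gene of many cultured lines, while COL1A1 and PDGFRB did not exceed 4.37 and 2.69 FPKM. All 5 sums overlapped between probe sets. The part of these cell types in the tubulin values was not tested.

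Paralogs that are hard to tell apart in their coding parts start from different upstream DNA, which is printed here for the genes the values turn on. Each line gives the 80 bases before a RefSeq start, 5′ to 3′ on the gene's strand in build GRCh38.p14, which differs from the hg19 build of the FPKM files. Capitals mark the letters TATAA, the core of a TATA box, and the promoter motifs spelled CCAAT and, as bound by Sp1, GGGCGG, each on either strand. TUBB (chr6:30720272-30720351, plus strand) was the most abundant tubulin mRNA and TUBA1B (chr12:49131396-49131475, minus strand) the most abundant alpha tubulin mRNA. TUBB4B (chr9:137241207-137241286, plus strand) varied little between libraries. TUBB2A (chr6:3157545-3157624, minus strand) and TUBB2B (chr6:3227654-3227733, minus strand) are close copies, and TUBG1 (chr17:42609603-42609682, plus strand) had the smallest p between probe sets. TUBB has a further RefSeq start that is not shown.
TUBB: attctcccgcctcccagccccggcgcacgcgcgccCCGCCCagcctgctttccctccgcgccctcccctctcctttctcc
TUBA1B: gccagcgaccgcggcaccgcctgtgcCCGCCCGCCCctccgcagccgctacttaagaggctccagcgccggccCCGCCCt
TUBB4B: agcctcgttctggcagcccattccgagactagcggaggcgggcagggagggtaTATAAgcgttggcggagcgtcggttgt
TUBB2A: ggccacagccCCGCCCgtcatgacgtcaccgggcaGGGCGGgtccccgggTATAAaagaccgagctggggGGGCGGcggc
TUBB2B: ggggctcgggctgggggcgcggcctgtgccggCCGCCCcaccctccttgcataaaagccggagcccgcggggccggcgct
TUBG1: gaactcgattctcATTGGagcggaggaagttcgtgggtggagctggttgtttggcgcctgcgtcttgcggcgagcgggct

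The 10 genes and TUBB2B all matched the promoter table, with 16 RefSeq starts between them. TATAA lay in the 80 bases before 5 of the 16 starts on either strand, and in 7.78% of all 35116 start windows. TUBB2A held it and TUBB2B did not. CCAAT lay within 250 bases of 10 of the 16 starts (32.0% of all windows) and GGGCGG within 250 bases of 10 of the 16 (42.6%). A match describes letters and not a bound factor.

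TUBB, the widely expressed class I beta tubulin on chromosome 6 (30687978 to 30693203, plus strand, hg19), was the most abundant tubulin mRNA and ranked 42 among all 11593 genes by mean. It read 612, 628 and 596 FPKM in SNHG10 libraries, against 635, 653 and 640.5 FPKM in LacZ libraries. The SNHG10 libraries were all lower than the LacZ libraries, by a small amount. The log2 difference, SNHG10 minus LacZ on log2(FPKM + 1) values as everywhere below, was -0.07 ± 0.07 (SE), with a 95% interval of -0.23 to 0.09 and a limma adjusted p of 0.928. After median-ratio scaling of the libraries the values were 619.5, 634 and 588 in SNHG10 libraries and 617, 628 and 608 in LacZ libraries, so the groups then overlapped.

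The next levels were those of the alpha paralogs TUBA1B and TUBA1C, which lie on opposite strands of chromosome 12 (49521565 to 49525180, minus strand, and 49621709 to 49668386, plus strand). TUBA1B, the main alpha tubulin of dividing cells, read 600.1, 329 and 230.0 FPKM in SNHG10 libraries, against 472, 269 and 357 FPKM in LacZ libraries. The highest value of each probe set was in replicate 1, and the groups overlapped fully. Its log2 difference was 0.00 ± 0.34, with a 95% interval of -0.80 to 0.80 (limma adjusted p = 1.000), and it turned to -0.37 without SNHG10 replicate 1. TUBA1C read 221, 173 and 229.6 FPKM in SNHG10 libraries, against 169.7, 200.1 and 152 FPKM in LacZ libraries. SNHG10 replicates 1 and 3 were above every LacZ library and replicate 2 was not. The log2 difference of TUBA1C was 0.25 ± 0.15 (95% interval -0.10 to 0.61, limma adjusted p = 0.928).

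TUBB4B, a class IV beta tubulin found in most tissues, lies on chromosome 9 (140135665 to 140138159, plus strand). It read 115, 132 and 118 FPKM in SNHG10 libraries, against 121, 117 and 114 FPKM in LacZ libraries, overlapping and close together, with a log2 difference of 0.05 ± 0.11 (95% interval -0.20 to 0.31). TUBA1A, the alpha paralog best known from developing neurons, lies on chromosome 12 (49578579 to 49583107, minus strand). It read 63.2, 63.5 and 95.6 FPKM in SNHG10 libraries, against 50.3, 83.7 and 99.2 FPKM in LacZ libraries, with a log2 difference of -0.04 ± 0.28 that changed sign under median-ratio scaling (0.02). Both genes overlapped between probe sets, and neither passed the test (limma adjusted p of 0.961 and 0.992).

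TUBB3, the class III beta tubulin of neurons that many tumour cells also make, lies on chromosome 16 (89987800 to 90002505, plus strand). It read 107, 36.3 and 44.0 FPKM in SNHG10 libraries, against 119, 47.8 and 36.8 FPKM in LacZ libraries. Replicate 1 of each probe set was more than 2 times as high as the other libraries of its set, so the spread lay within the probe sets and not between them. Over the 6 libraries TUBB3 spanned 3.27-fold, the widest range of the 9 genes. Its log2 difference was -0.10 ± 0.51 (95% interval -1.28 to 1.09, limma adjusted p = 0.988), and 0.40 without LacZ replicate 1. The neuronal marker SYP read 0, 0.590 and 1.13 FPKM in SNHG10 libraries, against 0.930, 1.38 and 0.905 FPKM in LacZ libraries. SNAP25 read 0, 0 and 1.94 FPKM in SNHG10 libraries, against 2.98, 0.713 and 1.76 FPKM in LacZ libraries, so like TUBB3 it was highest in LacZ replicate 1, but it was at 0 in SNHG10 replicate 1. Both are near 0, and the part of neuronal RNA in the TUBB3 values was not tested.

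TUBB2A, a class II beta tubulin on chromosome 6 (3153903 to 3157760, minus strand), read 55.0, 49.5 and 56.3 FPKM in SNHG10 libraries, against 55.2, 74.7 and 55.5 FPKM in LacZ libraries. LacZ replicate 2 stood above the other 5 libraries, and the log2 difference was -0.19 ± 0.16 (limma adjusted p = 0.928). Its close copy TUBB2B lies nearby (3224495 to 3227969, minus strand) and read 58.3, 71.4 and 55.5 FPKM in SNHG10 libraries, against 76.9, 85.3 and 71.9 FPKM in LacZ libraries. All SNHG10 libraries of TUBB2B were below all LacZ libraries, narrowly, with a log2 difference of -0.34 ± 0.15 (95% interval -0.68 to 0.01, limma adjusted p = 0.885). The sum of the pair was 113, 121 and 112 FPKM in SNHG10 libraries, against 132, 160 and 127 FPKM in LacZ libraries. After median-ratio scaling both TUBB2B and the sum overlapped.

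TUBB6, a class V beta tubulin on chromosome 18 (12308058 to 12344319, plus strand), read 63.6, 33.6 and 56.2 FPKM in SNHG10 libraries, against 53.9, 47.8 and 74.7 FPKM in LacZ libraries. The groups overlapped, with a log2 difference of -0.22 ± 0.27 (limma adjusted p = 0.936), and 0.05 without SNHG10 replicate 2.

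TUBG1, the gamma tubulin of the microtubule-nucleating ring, lies on chromosome 17 (40761694 to 40767252, plus strand) and had the smallest p of the 9 genes. It read 33.0, 37.4 and 35.2 FPKM in SNHG10 libraries, against 52.2, 45.7 and 49.4 FPKM in LacZ libraries. Every SNHG10 library was below every LacZ library, also after median-ratio scaling (33.4 to 37.8 against 43.9 to 50.8 FPKM). The log2 difference was -0.47 ± 0.14 (95% interval -0.80 to -0.13), with an unadjusted p of 0.0124 and an adjusted p of 0.885 by limma over all genes, so the difference did not pass. It ranked 134 among the 10304 genes tested by unadjusted p. The near-identical gene TUBG2 on the same chromosome (40811323 to 40819024, plus strand) read 12.0, 8.74 and 0 FPKM in SNHG10 libraries, against 2.82, 18.3 and 14.1 FPKM in LacZ libraries. The sum of TUBG1 and TUBG2 was 45.02, 46.2 and 35.2 FPKM in SNHG10 libraries, against 55.0, 64.0 and 63.5 FPKM in LacZ libraries, and did not overlap either. The separation of TUBG1 depended on a short listed transcript, TUBG1-205 (chromosome 17, 40761704 to 40765929), which read 13.9 FPKM in LacZ replicate 3 and was listed at 0 in the other 5 libraries. TUBG1-201, the row that held the rest, read 33.0, 37.4 and 35.2 FPKM in SNHG10 libraries, against 52.2, 45.7 and 35.5 FPKM in LacZ libraries, and these overlapped. Its log2 difference was -0.31 ± 0.19, with an unadjusted p of 0.147 and a limma adjusted p of 0.951.

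**Figure D1:**
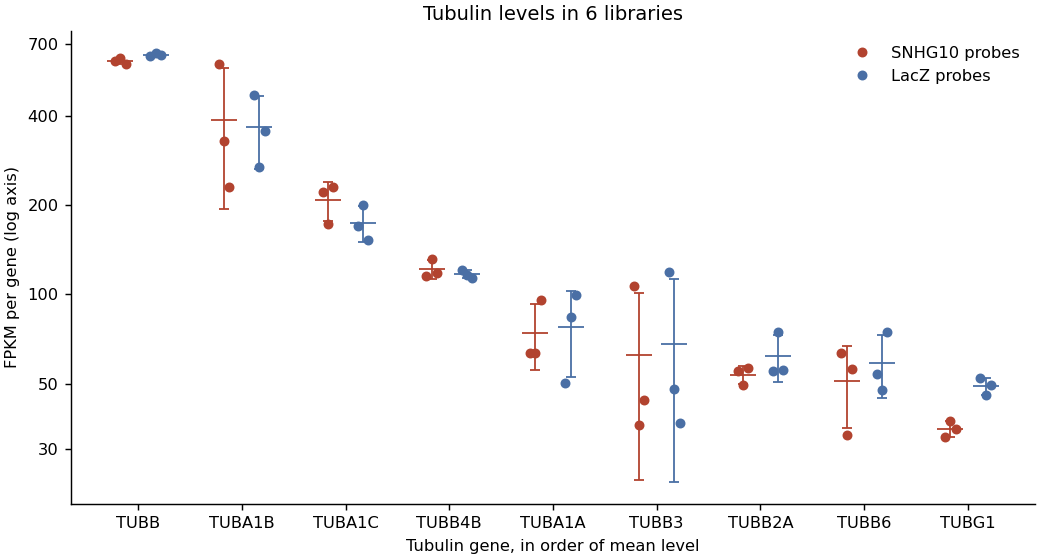
FPKM per gene on a log axis for the 9 tubulin genes in order of mean level, with 1 point per library (SNHG10 probes left, LacZ probes right), the group mean as a dash and the SD over 3 libraries as a bar. TUBB is highest at 596 to 653 FPKM, TUBA1B and TUBB3 spread widely within each probe set, and TUBB and TUBG1 are the genes whose probe sets do not overlap.

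No tubulin gene passed the test between probe sets. Of the 9 genes, all passed the filter on low values (1 FPKM or more in 3 or more libraries), 0 were called by limma at an adjusted p under 0.05 (0% of all 10304 genes tested were called higher and 0% lower), and adjusted p ran from 0.885 to 1.000. At an unadjusted p under 0.05 limma had 1 of the 9, TUBG1, lower, where 3.32% of all genes were lower at that level, and 0 of the 9 higher (2.1%; 5.42% in either direction). Over all genes that unadjusted level was passed by 216 higher and 342 lower, and after median-ratio scaling by 293 higher and 253 lower. The probe sets did not overlap in 2 of the 9, TUBB and TUBG1, both lower in SNHG10 libraries, against 11.4% of all genes (4.22% above and 7.21% below). The log2 difference was above 0 in 3 and below 0 in 6, with a median of -0.07 beside -0.05 over all genes tested. After median-ratio scaling 4 were above and 5 below 0, with a median of -0.010. Without SNHG10 replicate 2, 5 were above and 4 below 0 with a median of 0.050, and without SNHG10 replicate 1 the median was -0.21.

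**Figure D2:**
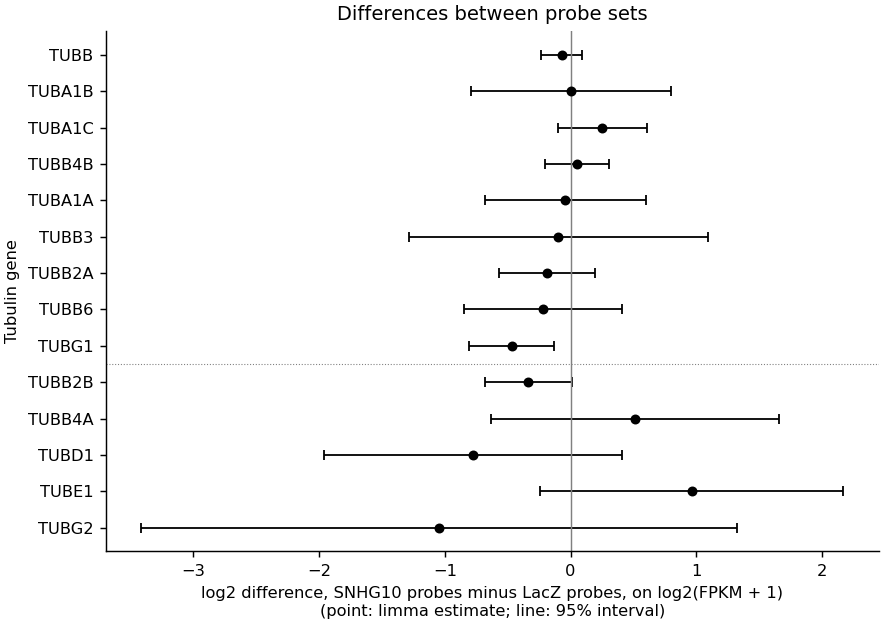
Log2 difference of each tubulin gene, SNHG10 probes minus LacZ probes, on log2(FPKM + 1) values, as the limma estimate (point) with its 95% interval (line); the 9 genes of the main set are above the dotted line and 5 other tubulin genes below it. The intervals include 0 for all but TUBG1, whose unadjusted interval runs from -0.80 to -0.13 and whose adjusted p was 0.885.

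The order of levels was the same at its top in all libraries and mixed at its foot. Over the 6 libraries TUBB averaged 627 FPKM, TUBA1B 376, TUBA1C 191, TUBB4B 119, TUBA1A 75.9, TUBB3 65.1, TUBB2A 57.7, TUBB6 55.0 and TUBG1 42.2 FPKM. FPKM are scaled by length of transcript, which is why levels of different genes are set side by side here. The order can still depend on how reads shared between paralogs were assigned, which is unknown. TUBA1B and TUBA1C, TUBA1C and TUBB4B, and TUBB4B and TUBA1A had ranges over the libraries that did not overlap. TUBB and TUBA1B overlapped in range, because TUBA1B reached 600.1 FPKM in SNHG10 replicate 1, but TUBB was the higher in 6 of 6 libraries. From TUBA1A down, each neighbour overlapped the next, and TUBB3 was above TUBB2A in only 2 of 6 libraries although its mean was higher. The first 5 places stayed as they were whichever library was left out.

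Summed over paralogs, beta tubulin varied less between libraries than alpha tubulin, a contrast that rested largely on SNHG10 replicate 1 and on TUBB. The 3 alpha genes summed to 885, 565 and 555 FPKM in SNHG10 libraries, against 692, 553 and 608 FPKM in LacZ libraries, a coefficient of variation (CV, the SD over the mean) of 20.2% over the 6 libraries. The 5 beta genes summed to 953, 879 and 871 FPKM in SNHG10 libraries, against 983, 940 and 921 FPKM in LacZ libraries, a CV of 4.70%. SNHG10 replicate 1 had the highest alpha sum, and both sums overlapped between probe sets. Without that library the CV was 9.91% for alpha and 5.01% for beta. The beta sum without TUBB had a CV of 13.1% over all 6 libraries and of 12.6% without SNHG10 replicate 1, above that of alpha in the same 5 libraries. Alpha and beta together averaged 1569 ± 232 FPKM in SNHG10 libraries, against 1566 ± 97.0 FPKM in LacZ libraries (SD, n = 3 each), or 0.581% ± 0.0890 and 0.571% ± 0.0364 of the FPKM total. The mean difference of 3.60 FPKM was -130 FPKM without SNHG10 replicate 1 and 75.2 FPKM without SNHG10 replicate 3, and 68.7 FPKM after median-ratio scaling. The alpha sum averaged 50.7 FPKM higher in SNHG10 libraries, but had a difference of -57.45 FPKM without SNHG10 replicate 1. The beta sum differed by -47.1 FPKM, or by -61.5 FPKM with TUBB2B and TUBB4A added. That difference was -73.0 FPKM without SNHG10 replicate 1, -29.5 FPKM without LacZ replicate 1 and -8.26 FPKM after median-ratio scaling. No test was run on these sums.

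The alpha to beta ratio was 0.928, 0.642 and 0.637 in SNHG10 libraries and 0.704, 0.588 and 0.660 in LacZ libraries. It was below 1 in all 6 libraries and highest in SNHG10 replicate 1. The sums leave out TUBA4A and any other alpha gene, and the beta sum leaves out TUBB2B and TUBB4A, which had rows. With both added the beta sum averaged 998 FPKM over the libraries, against 925 FPKM without them, which would lower the ratio. The ratio is thus that of the 3 alpha and 5 beta genes summed here. Without SNHG10 replicate 1 the mean difference of 0.0856 became -0.0106.

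**Figure D3:**
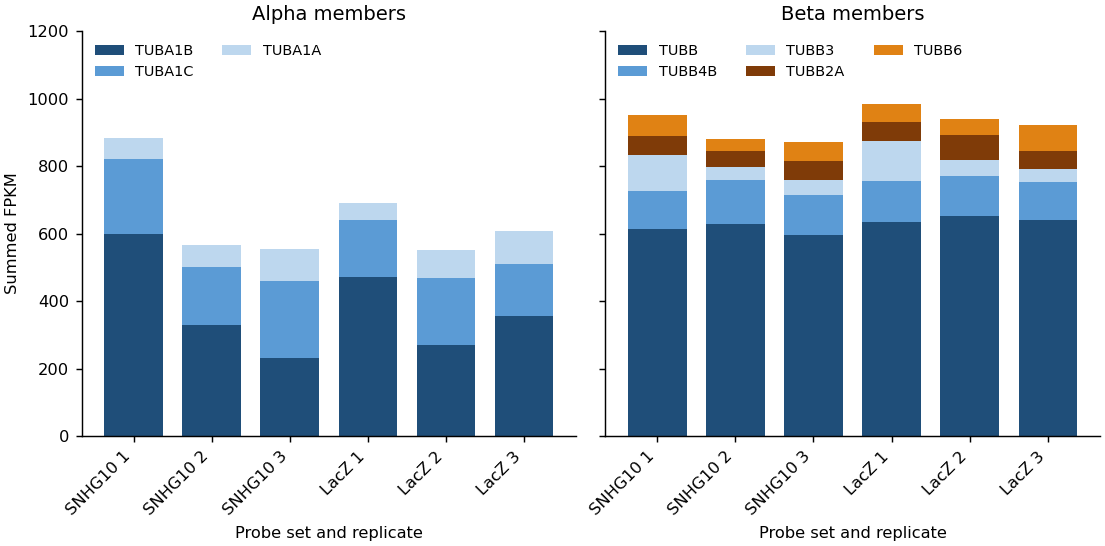
Summed FPKM of the 3 alpha genes (left) and 5 beta genes (right) in each library, with each paralog as a colour in a stacked bar. The alpha sums run from 553 to 885 FPKM with most of the change in TUBA1B, while the beta sums stay between 871 and 983 FPKM.

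Within the alpha family the shares of the paralogs shifted from library to library. TUBA1B held 67.8%, 58.2% and 41.4% of the alpha sum in SNHG10 libraries and 68.2%, 48.6% and 58.7% in LacZ libraries. TUBA1C held 25.0%, 30.5% and 41.4% in SNHG10 libraries, against 24.5%, 36.2% and 25.0% in LacZ libraries. TUBA1B was the largest in every library, but in SNHG10 replicate 3 it and TUBA1C were nearly equal, at 230.0 and 229.6 FPKM. Of the sum of the 5 beta genes TUBB held 64.3%, 71.4% and 68.5% in SNHG10 libraries, against 64.5%, 69.5% and 69.5% in LacZ libraries. That sum leaves out TUBB2B and TUBB4A. Pooling TUBA1B with TUBA1C gave a CV of 24.8% over the 6 libraries, and the whole alpha family 20.2%, against 36.6% for TUBA1B alone, 26.1% for TUBA1A and 16.2% for TUBA1C. A CV below that of TUBA1B alone also arises when genes that vary separately are summed. The part that reads shared between these copies had in those values was not tested.

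TUBB was among the least variable of the abundant genes, and TUBA1B among the most variable. The SD within a probe set on the log2 scale was 0.03 for TUBB, 0.08 for TUBB4B, 0.21 for TUBA1C and 0.57 for TUBA1B, against a median of 0.15 over the 364 genes that averaged 100 FPKM or more. Ranked from the smallest SD, TUBB was at place 4, TUBB4B at 55, TUBA1C at 247 and TUBA1B at 352 of those 364. Of the less abundant genes, TUBG1 had 0.09, TUBB2A 0.19, TUBB6 0.41, TUBA1A 0.43 and TUBB3 0.85, beside a median of 0.40 over all 10304 genes tested. The limit of 100 FPKM was set after the values were seen.

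**Figure D4:**
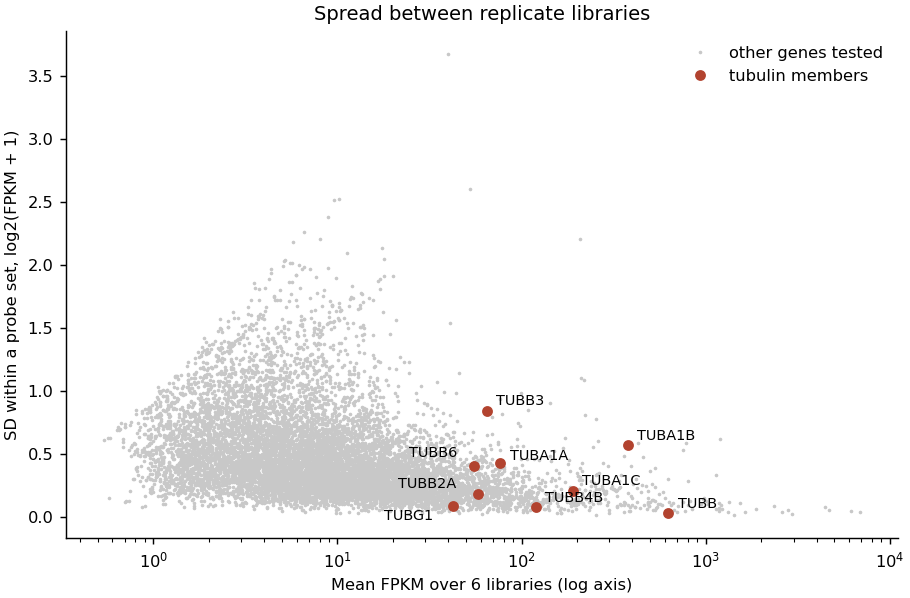
SD of log2(FPKM + 1) within a probe set against mean FPKM over 6 libraries (log axis) for the 10304 genes tested (grey) and the 9 tubulin genes (red). TUBB lies at the lower edge at its abundance with an SD of 0.03, and TUBA1B and TUBB3 lie above most genes of like abundance at 0.57 and 0.85.

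Several genes divided their FPKM among listed transcripts differently from library to library. Of the 32 transcript rows, 17 were above 0 in all 6 libraries and 15 were listed at 0 in at least 1. Of 25 rows that passed the filter, limma called 0 (0.0481% of all 16618 rows tested were called higher and 0.0421% lower), with adjusted p from 0.818 to 0.999. At an unadjusted p under 0.05 there were 2 of the 25, TUBB3-203 higher and TUBB-207 lower, against 5.66% of all rows (2.59% higher and 3.06% lower). The probe sets did not overlap in 3 of the 25 (10.5% of all rows), namely TUBB-205 and TUBB-207 below (6.06%) and TUBB3-203 above (4.48%).

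TUBB came almost wholly from TUBB-205 (chromosome 6, 30687978 to 30693203), which held 95.1% to 98.6% of the gene in all libraries. It read 582, 600.6 and 588 FPKM in SNHG10 libraries, against 618, 627 and 614 FPKM in LacZ libraries. TUBB-207, which starts further in (30689476 to 30693203), read 12.4, 11.2 and 5.50 FPKM in SNHG10 libraries, against 14.5, 22.2 and 24.4 FPKM in LacZ libraries. Its log2 difference was -1.03 ± 0.37, with an unadjusted p of 0.0307 and a limma adjusted p of 0.818. TUBB-206 (30689351 to 30693203) went the other way in part, at 16.05, 14.7 and 0.361 FPKM in SNHG10 libraries, against 1.40, 2.40 and 0.530 FPKM in LacZ libraries, overlapping through SNHG10 replicate 3. TUBB-208 was between 0.546 and 2.44 FPKM in every library.

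TUBA1B was mostly TUBA1B-202 (chromosome 12, 49521565 to 49525178), at 590.4, 312 and 178 FPKM in SNHG10 libraries, against 459.5, 213 and 337 FPKM in LacZ libraries. TUBA1B-206 was listed at 0, 7.11 and 41.3 FPKM in SNHG10 libraries, against 0, 47.8 and 4.49 FPKM in LacZ libraries. It was highest in the library of each probe set where TUBA1B-202 was lowest. TUBA1B-203 and TUBA1B-205 did not exceed 10.8 FPKM in any library.

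TUBA1C had its main row TUBA1C-201 (49658690 to 49668386) at 89.6, 155 and 135 FPKM in SNHG10 libraries, against 111, 183 and 115 FPKM in LacZ libraries. TUBA1C-202, which starts far upstream of the others (49621709 to 49667117), read 103, 0 and 78.2 FPKM in SNHG10 libraries, and every LacZ library had it at 0. It did not pass the filter on low values and was not tested. TUBA1C-210 read 0, 6.07 and 0 FPKM in SNHG10 libraries, against 53.3, 0 and 5.49 FPKM in LacZ libraries, and TUBA1C-204 read 28.5, 11.2 and 16.4 FPKM in SNHG10 libraries, against 5.29, 17.6 and 31.7 FPKM in LacZ libraries. The gene sum thus moved less (152 to 229.6 FPKM) than the transcripts in it.

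TUBA1A was shared between TUBA1A-207 and TUBA1A-202. TUBA1A-207 (49578793 to 49580647) read 22.0, 37.9 and 69.1 FPKM in SNHG10 libraries, against 26.4, 28.0 and 31.4 FPKM in LacZ libraries. TUBA1A-202 (49578579 to 49583107) read 33.5, 16.1 and 8.74 FPKM in SNHG10 libraries, against 20.4, 38.1 and 44.9 FPKM in LacZ libraries. In the SNHG10 libraries the 2 rows ran in opposite order, and in both rows the probe sets overlapped. TUBA1A-201 read 7.78, 1.04 and 3.76 FPKM in SNHG10 libraries, against 0.775, 16.4 and 19.1 FPKM in LacZ libraries, and TUBA1A-208 and TUBA1A-209 stayed at or under 7.99 FPKM.

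TUBB3-201 (chromosome 16, 89989687 to 90002505) carried the high values of replicate 1, at 78.8, 20.6 and 16.2 FPKM in SNHG10 libraries, against 114, 35.8 and 28.5 FPKM in LacZ libraries. It held 73.7%, 56.7% and 36.8% of TUBB3 in SNHG10 libraries and 96.1%, 75.02% and 77.6% in LacZ libraries, shares that did not overlap. How often such shares separate over all genes was not computed. TUBB3-203 (89989774 to 90000409) read 6.803, 6.99 and 14.2 FPKM in SNHG10 libraries, against 4.64, 3.80 and 3.03 FPKM in LacZ libraries. All its SNHG10 libraries were above its LacZ libraries, with a log2 difference of 1.04 ± 0.39, an unadjusted p of 0.0363 and a limma adjusted p of 0.842. TUBB3-206 read 21.2 FPKM in SNHG10 replicate 1 and at most 0.818 FPKM elsewhere. TUBB3-210 and TUBB3-212 were listed at 0 in replicate 1 of both probe sets and read 2.02 to 7.51 FPKM in the other 4 libraries.

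TUBB6 held more of its FPKM in TUBB6-201 (chromosome 18, 12308058 to 12326618) in SNHG10 libraries, at 74.0%, 80.5% and 100%, than in LacZ libraries, at 63.5%, 72.4% and 50.05%. TUBB6-201 itself overlapped, at 47.1, 27.0 and 56.2 FPKM in SNHG10 libraries, against 34.3, 34.6 and 37.4 FPKM in LacZ libraries. TUBB6-203, TUBB6-204 and TUBB6-207 were listed at 0 in all 3 SNHG10 libraries, and each was also at 0 in 1 LacZ library. TUBB6-207 read 11.4, 0 and 11.1 FPKM and TUBB6-203 0, 9.14 and 12.6 FPKM in LacZ libraries. TUBB6-213 read 16.5, 0 and 0 FPKM in SNHG10 libraries, against 3.99, 4.06 and 12.5 FPKM in LacZ libraries, and TUBB6-212 read 6.55 FPKM in SNHG10 replicate 2 and 3.09 FPKM in LacZ replicate 1, and was at 0 elsewhere. The share of the leading row overlapped between probe sets for TUBA1A, TUBA1B, TUBA1C, TUBB and TUBG1. It separated for TUBB3 and TUBB6, in opposite directions. Shares were not tested. Rows with a 0 were tested where they passed the filter, as TUBB6-213 did (log2 difference -1.43, limma adjusted p = 0.951). TUBB6-203, TUBB6-204, TUBB6-207 and TUBB6-212 did not pass it and were not tested. A listed 0 may stand for a failed estimate.

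**Figure D5:**
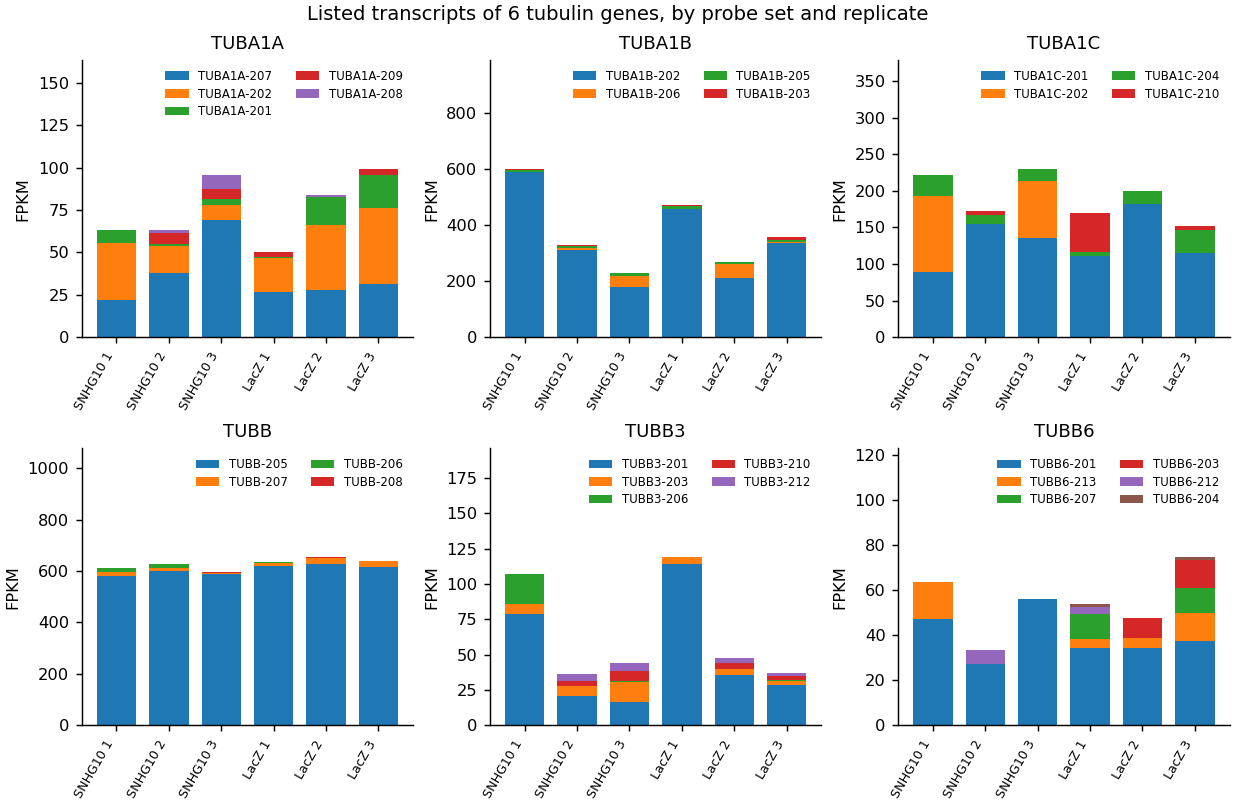
FPKM of each listed transcript, stacked, in each library for TUBA1A, TUBA1B, TUBA1C, TUBB, TUBB3 and TUBB6 (SNHG10 replicates 1 to 3 left, LacZ replicates 1 to 3 right; each panel has its own scale). TUBB is nearly all TUBB-205, TUBB3-201 is high in replicate 1 of both probe sets at 78.8 and 114 FPKM, and TUBA1C-202 appears in SNHG10 replicates 1 and 3 alone.

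Of 12 further tubulin genes looked for, 5 had rows and TUBA3C, TUBA3D, TUBA3E, TUBA8, TUBAL3, TUBB1 and TUBB8 were not analysed here. Beside TUBB2B and TUBG2, these were low. TUBB4A, a beta tubulin of the brain, read 2.00, 7.73 and 4.71 FPKM in SNHG10 libraries, against 2.52, 1.56 and 4.71 FPKM in LacZ libraries. TUBD1 and TUBE1, the delta and epsilon tubulins of centrioles, read 0.607 to 1.75 and 1.31 to 3.38 FPKM in SNHG10 libraries, against 1.17 to 5.91 and 0 to 2.23 FPKM in LacZ libraries. All 5 genes passed the filter, 0 were called, and their limma adjusted p ran from 0.885 to 0.928, with wide intervals such as -3.41 to 1.33 for the log2 difference of TUBG2 (-1.04).

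The proteins that fold tubulin were all listed and none was called. New tubulin passes from prefoldin to the ring-shaped chaperonin CCT and then to the cofactors TBCA to TBCE, and of 21 genes of these steps 0 were higher and 0 lower by limma. The log2 difference was above 0 in 9 and below 0 in 12, with a median of -0.03 (11 and 10 after median-ratio scaling, median 0.03). CCT5, a chaperonin subunit, read 44.3, 45.7 and 52.1 FPKM in SNHG10 libraries, against 83.3, 54.0 and 59.9 FPKM in LacZ libraries. These did not overlap (log2 difference -0.44 ± 0.19, limma adjusted p = 0.885), as held for 11.4% of all genes. The transcript row CCT5-201 went the other way, with a log2 difference of 0.29. CCT4, from the same ring, read 106.7 to 109.6 FPKM in SNHG10 libraries, against 103 to 111 FPKM in LacZ libraries, and was picked after its values were seen. TBCC, which splits the folded dimer from the cofactors, read 13.1, 7.25 and 6.45 FPKM in SNHG10 libraries, against 13.1, 13.1 and 16.7 FPKM in LacZ libraries (log2 difference -0.67 ± 0.30, limma adjusted p = 0.885), overlapping through SNHG10 replicate 1.

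Gamma tubulin's partners gave no call either. Of 12 ring complex genes limma had 0 higher and 0 lower, with 6 log2 differences above and 6 below 0 and a median of -0.13 (6 and 6 after median-ratio scaling, median -0.08). TUBGCP4, a ring subunit that binds gamma tubulin, read 3.32, 4.48 and 2.81 FPKM in SNHG10 libraries, against 7.56, 5.24 and 6.58 FPKM in LacZ libraries. The groups did not overlap (11.4% of all genes did not), with a log2 difference of -0.72 ± 0.30 and a limma adjusted p of 0.885. Its transcript rows went opposite ways, with log2 differences of -2.14 for TUBGCP4-201 and 1.11 for TUBGCP4-208, neither called. CDK5RAP2, which activates the ring at centrosomes, read 4.36, 7.75 and 9.18 FPKM in SNHG10 libraries, against 4.51, 4.76 and 3.46 FPKM in LacZ libraries (log2 difference 0.59 ± 0.34, limma adjusted p = 0.926).

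Of 18 genes for tubulin modification, 14 were listed, 13 tested and 0 called by limma, with 7 log2 differences above and 6 below 0 (median 0.11). SVBP, the partner of the vasohibins that cut tyrosine from alpha tubulin, read 6.07, 2.22 and 3.42 FPKM in SNHG10 libraries, and every LacZ library had it at 0 (limma adjusted p = 0.584). The gene passed the filter only through its SNHG10 libraries, so its entry into the test depended on the group where it was high. A listed 0 may also stand for a failed estimate. AGTPBP1, which trims glutamate side chains, read 3.33, 1.79 and 2.86 FPKM in SNHG10 libraries, against 1.652, 2.20 and 0.239 FPKM in LacZ libraries (limma adjusted p = 0.928). Of 23 microtubule-associated proteins, 21 were listed, 20 tested and 0 called by limma, with 10 log2 differences above and 10 below 0 (12 and 8 after median-ratio scaling). KATNA1, the severing subunit of katanin, read 5.16, 2.57 and 4.58 FPKM in SNHG10 libraries, against 12.9, 5.62 and 4.77 FPKM in LacZ libraries. TPX2, a spindle assembly factor, read 32.7, 33.1 and 28.1 FPKM in SNHG10 libraries, against 38.3, 40.5 and 33.8 FPKM in LacZ libraries. These did not overlap (11.4% of all genes did not), with a log2 difference of -0.25 ± 0.16. The limma adjusted p of both genes was 0.928. Both were lower as gene sums, but the transcript rows KATNA1-203 and TPX2-201 had log2 differences of 0.29 and 1.46.

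By profile over the 6 libraries, the genes most like the summed alpha and beta tubulin were CCND1, HNRNPM and SPG7, among 2276 other genes averaging 20 FPKM or more. Their root mean square distance from the tubulin profile was 0.0657 to 0.0671 on the centred log2 scale. CCND1, cyclin D1, read 66.2, 53.6 and 54.7 FPKM in SNHG10 libraries, against 59.6, 60.8 and 56.3 FPKM in LacZ libraries. It was picked for its likeness to the tubulin sum, so its peak in SNHG10 replicate 1 is no separate result. How near the closest of 2276 genes would lie by chance was not tested.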

How the data were processed

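Values are FPKM per transcript, as the authors deposited them per the file headers, for 3 libraries with SNHG10 probes and 3 with LacZ probes, grouped by their labels. The submitters' processing notes name Bowtie2 2.1.0 and the hg19 build. Which program estimated FPKM, and how it handled reads matching several genes, is not given in the sources used here. Nothing says that replicates were separate cultures, so p-values measure only how these libraries vary, and that may be technical.

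FPKM were summed per gene symbol. The test was limma 3.58.1 (R 4.3.3, eBayes with a trend) on log2(FPKM + 1) for the 10304 genes, and separately the 16618 transcript rows, that reached 1 FPKM in 3 or more libraries. Adjustment was by Benjamini-Hochberg over all rows, with a threshold of 0.05. That scale understates changes of low genes. Family sums were described without a test. The genes, gene lists and tests were chosen with earlier results of these data known. Named were all tubulin genes with rows, the 2 genes of each pathway list with the smallest p, transcripts with a mean of at least 1 FPKM, and the 3 genes nearest in profile to the tubulin sum; other transcripts or genes named were picked after their values were seen. Upstream sequences are from RefSeq (GRCh38.p14). Tables and figures used Python 3.11.15, pandas 2.3.3 and matplotlib 3.10.9.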

Additional observations from a re-analysis of the deposited data

How the results depend on the processing

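No tubulin gene or transcript was called under any alternative run. Among all genes 0 were called, except 1 lower without SNHG10 replicate 1 and 1 higher without LacZ replicate 2 (0 to 1 in each direction over leave-one-out runs). Among all transcript rows, 8 higher and 7 lower became 0 and 0 with the replicate block and in every leave-one-out run, 3 and 3 without the filter, 3 and 3 with a filter of 5 FPKM, 3 and 2 with a pseudocount of 0.1 and of 5, and 26 and 27 without trend. The cause was not tested. The fit with the replicate number as a block changed no other call; in this balanced design it cannot move a log2 difference, and TUBG1 had an adjusted p of 0.886 by limma. The deviations of libraries sharing a number had correlations of 0.0151, 0.0121 and 0.0161. Those of libraries with different numbers were lower, from -0.0243 to 0.0085. All were small, and the main fit did not treat the numbers as pairs. Whether they mark pairs or batches was not tested.

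The sign of several log2 differences turned, and not only of those near 0. In the main fit TUBG2 was -1.04 and TUBA1B-203 -0.64. With median-ratio scaling TUBA1A was 0.019 and TUBA1B-202 0.046 (0.039 with quantile normalization). Over leave-one-out runs the log2 difference ranged from -0.32 to 0.16 for TUBA1A, -0.37 to 0.32 for TUBA1B, -0.56 to 0.40 for TUBB3, -0.0043 to 0.092 for TUBB4B, -0.40 to 0.050 for TUBB6 and -1.76 to 0.12 for TUBG2. Among transcripts it ranged from -0.17 to 1.46 for TUBA1A-209, -0.44 to 0.42 for TUBA1B-202, -1.57 to 0.14 for TUBA1B-203, -0.056 to 0.43 for TUBA1B-205, -1.23 to 1.58 for TUBA1B-206, -0.27 to 0.13 for TUBA1C-201, -0.42 to 0.77 for TUBA1C-204, -0.46 to 1.19 for TUBB3-210, -0.15 to 1.34 for TUBB3-212 and -0.0043 to 0.092 for TUBB4B-201. TUBG1 ranged from -0.52 to -0.42, and its row TUBG1-201 alone from -0.46 to -0.19. Unknown depth and the unknown treatment of shared reads limit what paralog levels can show.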
